A study of Mus musculus with 30 samples.

Results

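Bone marrow–derived dendritic cells (BMDCs) from wild-type (WT) mice were compared between 2 sets of libraries of the same cultures, those whose names end in 24h and those whose names end in 0p5h. The rule took every WT library of these sets, 5 named 24h and 5 named 0p5h, which made 10 of the 30 libraries of the study, and joined them by the number of the culture (p974s846, p974s850, p974s855, p974s856 and p974s864). The study grew bone marrow of WT (C57BL/6J) and *Cacnb3*-/- (C57BL/6N) mice for 6 days in medium with granulocyte-macrophage colony-stimulating factor (GM-CSF) and gave 500 µM extracellular ATP for 30 min. By the labels the cells were then taken at once or 24 hours later, whereas the study's text places the early time point 30 min after the pulse. Each culture has a library named ctrl, 0p5h and 24h. All WT groups used here share the strain, the GM-CSF culture and the absence of any engineered allele, and they differ in the ATP pulse and the time after it. No WT library is labelled as taken 24 hours later without ATP. The pulse and the further time in culture therefore cannot be told apart in the libraries named 24h.

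The labels do not agree on the pulse. The libraries named 24h have a treatment field of 24 hours after ATP, as their name says. The libraries named 0p5h carry the treatment field vehicle, and those named ctrl carry 30 min of ATP. Read by name, the comparison sets 24 hours after ATP against the early time point, and read by field it sets 24 hours after ATP against cells without ATP. The library names are kept below, "higher", "lower", "rose" and "fell" give the direction from 0p5h to 24h, and values of the libraries named ctrl are given beside those of the main genes. The labels do not say whether the 5 cultures came from separate mice. The p-values of the main test therefore weigh the change within a culture against the spread of that change between these cultures.

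Dendritic cells take up antigen, carry it to lymph nodes and present it to T cells, and cultures of bone marrow in GM-CSF give a mixture of such cells and cells close to macrophages. ATP outside cells is a sign of damage. It opens P2X channels and engages P2Y receptors, raises cytosolic calcium and switches on mitogen-activated protein (MAP) kinases. Immediate early genes, such as those of the FOS, EGR and NR4A families, respond to such signals within minutes without new protein synthesis, and their mRNAs are short-lived. Cytokine and prostaglandin genes follow, together with feedback genes whose products end the signal.

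Total counts ranged from 12988438 to 24168253 in the libraries named 24h and from 17037603 to 32164225 in those named 0p5h, and 17210 to 20271 genes had at least 1 count. In an exact paired permutation test (5 cultures, two-sided), neither total counts (p = 0.312), nor the number of genes with a count (p = 1), nor the share of mitochondrial counts (p = 0.125) passed, in a design where the smallest possible p is 0.0625. The mitochondrial share was 0.706% to 5.61% in the libraries named 24h and 1.13% to 4.02% in those named 0p5h, and it was higher at 24h in 4 of 5 cultures. Defining markers of dendritic cells were present: 13 of 14 could be tested (*Cd209a* could not), with a summed level of 21274 to 37659 counts per 1000000 (CPM) at 24h and 29624 to 44216 CPM in 0p5h. MHC class II genes weigh heavily in this sum, with *Cd74* at a mean of 15586 CPM in 0p5h against 125 for *Zbtb46* and 66.2 for *Flt3*. In the test described below, 6 of the 13 passed as lower (*Itgax*, *Cd80*, *Itgam*, *H2-Eb1*, *H2-Aa* and *Cd86*) and 1 as higher (*Flt3*). The median log2 fold change of the list was -0.38. Of the 12 macrophage markers, all 12 were tested and they summed to 2481 to 5700 CPM at 24h and 3477 to 9195 CPM in 0p5h. Of these, *Cd14* and *Lyz2* passed the test described below, both lower, and *Lyz2* did not pass without p974s846, p974s850, p974s855 or p974s864 (adjusted p up to 0.153). The macrophage list as a whole had a median log2 fold change of -0.07, with 5 members above 0 and 7 below. *Lyz2* (a mean of 3881 CPM in 0p5h and 2559 CPM at 24h) and *Cd14* weigh heavily in its sum. Neutrophil markers summed to 181 to 787 CPM at 24h and 203 to 485 CPM in 0p5h, with *Ltf* and *Ly6g* of 10 tested members higher (log2 fold change 0.76 and 0.83), *Ltf* not without p974s850 or p974s855 (adjusted p up to 0.0956) and *Ly6g* not without p974s846, p974s850, p974s855 or p974s856 (adjusted p up to 0.114). Mast cell, eosinophil, B cell, T and NK cell, plasmacytoid, erythroid and stromal lists held 1 gene with a 2-fold change (*Gata2*, lower) among the 17 members that could be tested. The other 4 of 5 tested mast cell and basophil markers had log2 fold changes above 0, and *Kit* passed as higher (0.31, adjusted p = 0.049). Among eosinophil markers, *Siglecf* passed as lower (-0.72). The part of these minor cell types in the culture was not tested. In bulk RNA, fewer cells of a type and less RNA per cell cannot be told apart.

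edgeR's quasi-likelihood test was run on 12830 genes with the culture as a block, so that each 24h library was read against the 0p5h library of its own culture. The genes named follow a rule given with the methods, and *Ccr2*, *Tlr9*, *Ptges*, *Cd80*, *Cd86*, *Tnfsf9*, *Icosl*, *Pdcd1*, *H2-Eb1*, *H2-DMa*, *Ifit1*, *Cmpk2*, *Mx1*, *Atp2a3*, *Fscn1*, *Itgax*, *Hk2*, *Slc2a1*, *mt-Nd4*, *Flt3*, *Runx3*, *Ltf* and *Ly6g* were added after their values were seen. Below, a called gene is one that changed 2-fold or more with a Benjamini-Hochberg adjusted p below 0.05, and a gene passes when it meets that adjusted p at any fold. Of the genes tested, 53 (0.413%) were called higher and 175 (1.36%) called lower, together 1.78%. At any fold, 580 (4.52%) passed as higher and 870 (6.78%) as lower. The counts of the lists below are to be read beside these shares, and 0 called members in a short list is close to the share of all genes. The median log2 fold change over all genes was 0.00134. Of the 228 called genes, 217 changed the same way in all 5 cultures and 11 in 4 of 5. The falls were the larger changes: 35 of the genes called lower and 2 of those called higher changed by 4-fold or more. They also included more abundant transcripts, with 38 genes called lower above a mean of 100 CPM in 0p5h and 1 gene called higher (*Apol7c*) above 100 CPM at 24h. Without the block, which leaves the differences between cultures in the error, 6 genes were called higher and 76 lower, and all 82 were among the 228. Among the genes named below, *Egr3*, *Fosl1*, *Socs3*, *Dusp2*, *Hpgds*, *Clec4e*, *Gpr183*, *Ccr6*, *Cxcl2*, *Mgl2*, *Gata2* and *Tk1* were not called in that fit, nor were others that are given with their group.

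**Figure D1:**
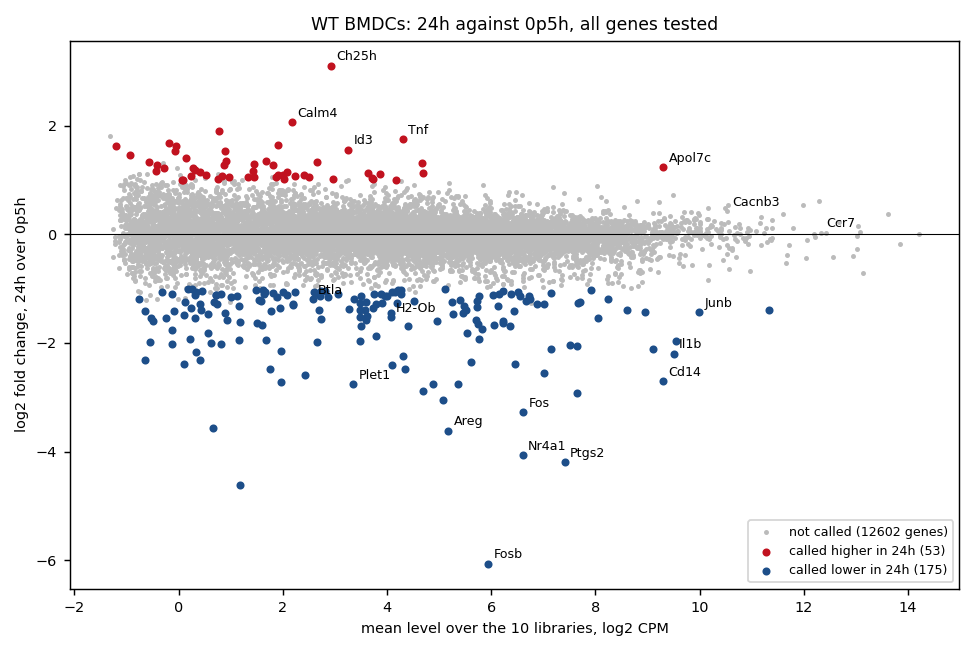
Each point is 1 of 12830 genes, with the mean level over the 10 WT libraries on the x axis (log2 CPM) and the log2 fold change from 0p5h to 24h on the y axis. Red points are the 53 genes called higher and blue points the 175 called lower. The falls reach further from 0 than the rises, from *Fosb* at -6.06 to *Ch25h* at 3.10.

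Immediate early genes included the largest falls. The list holds mostly transcription factors, but *Apold1* and *Arc* are not. Of 27 tested members of a list of 28, 11 were called lower and 0 higher, 17 passed as lower and 1 as higher, and the median log2 fold change was -0.83. *Fosb*, which encodes a subunit of the AP-1 transcription factor, fell 66.8-fold. Without p974s855, where its fall was smallest, the fit gave a fall of 126-fold. In cultures p974s846, p974s850, p974s855, p974s856 and p974s864, in that order, its level was 54.6, 209.6, 43.1, 140.2 and 161 CPM in 0p5h and 1.62, 0.737, 3.25, 1.18 and 0.478 CPM at 24h (log2 fold change -6.06, standard error 0.58, adjusted p = 0.000444). The sets did not overlap, and the libraries named ctrl lay with those named 24h, at 1.62, 2.399, 1.87, 0.861 and 4.97 CPM. Over all genes tested, 2.14% had all 5 libraries named 24h below all 5 named 0p5h, and 1.56% had them above.

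*Fos*, the partner of the JUN proteins in AP-1, went from 156, 214, 131, 191 and 199 CPM in 0p5h to 19.9, 15.4, 17.1, 13.2 and 26.4 CPM at 24h (log2 fold change -3.28, standard error 0.16, adjusted p = 2.22e-05). Every 24h library was below every 0p5h library, and the narrow range in 0p5h contrasted with the wide one of *Fosb*. *Nr4a1*, a nuclear receptor without a known ligand that is induced by receptor signalling, had 120.3, 216, 85.7, 262 and 223 CPM in 0p5h and 14.7, 3.797, 29.4, 12.9 and 2.63 CPM at 24h (log2 fold change -4.07, standard error 0.65, adjusted p = 0.00501). Its fall was shallowest in culture p974s855, where 0p5h was lowest and 24h highest, and without that culture its log2 fold change was -4.78. *Apold1*, an early-response gene first described in endothelial cells, was low throughout and fell from 4.41 ± 2.93 to 0.151 ± 0.161 CPM (mean ± SD, n = 5, as in all values of this form below).

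Further members called lower were *Klf4* (from 34.6 ± 10.9 to 6.04 ± 1.09 CPM), *Fosl2* (290.4 ± 47.8 to 74.9 ± 30.9 CPM), *Egr2* (82.1 ± 33.6 to 24.8 ± 7.64 CPM), *Nr4a2* (112 ± 19.2 to 37.2 ± 12.9 CPM) and *Junb* (1482 ± 346 to 555 ± 148 CPM). In these 5 genes the 2 sets did not overlap. *Egr3* (log2 fold change -2.59, adjusted p = 0.0477) and *Fosl1* (-1.36, adjusted p = 0.0216) were called on weaker evidence. *Egr3* fell in 4 of 5 cultures and was not called without p974s846, p974s850, p974s856 or p974s864, where its adjusted p reached 0.127. Its log2 fold change was -3.74 without p974s855 and -3.35 in DESeq2. *Fosl1* was not called without p974s846, p974s856 or p974s864 (adjusted p up to 0.0855). *Arc* (chosen after its value was seen), an early gene of neurons that dendritic cells also transcribe, went the other way from 205, 163, 195, 208 and 136 CPM in 0p5h to 324, 301, 339, 473 and 255 CPM at 24h (log2 fold change 0.89, standard error 0.09, adjusted p = 0.000473), a rise that passed but stayed under 2-fold.

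The levels in the libraries named ctrl place these falls. In a fit of all 15 WT libraries, 58 genes (0.436%) were called higher and 12 (0.0903%) lower in 0p5h than in ctrl, 0.526% of 13296 genes, and 72 (0.542%) higher and 99 (0.745%) lower in 24h than in ctrl, 1.29%. At any fold, 1.19% passed as higher and 0.88% as lower in 0p5h, and 6.33% and 7.73% in 24h. These comparisons share libraries with each other and with the comparison of 24h and 0p5h. *Fosb* differed from ctrl by 5.64 (standard error 0.48, adjusted p = 1.34e-05) on the log2 scale in 0p5h and by -0.44 (standard error 0.64, adjusted p = 0.683) in 24h. For *Fos* the values were 3.47 (standard error 0.28, adjusted p = 8.79e-06) in 0p5h and 0.14 (standard error 0.28, adjusted p = 0.774) in 24h, and for *Nr4a1* 4.37 (standard error 0.53, adjusted p = 0.000382) and 0.41 (standard error 0.53, adjusted p = 0.648). For these 3 genes the libraries named 0p5h stood apart, and a difference between 24h and ctrl was not detected. *Arc* instead had its lowest mean in 0p5h, at 181 CPM against 245 in ctrl and 338 at 24h.

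**Figure D2:**
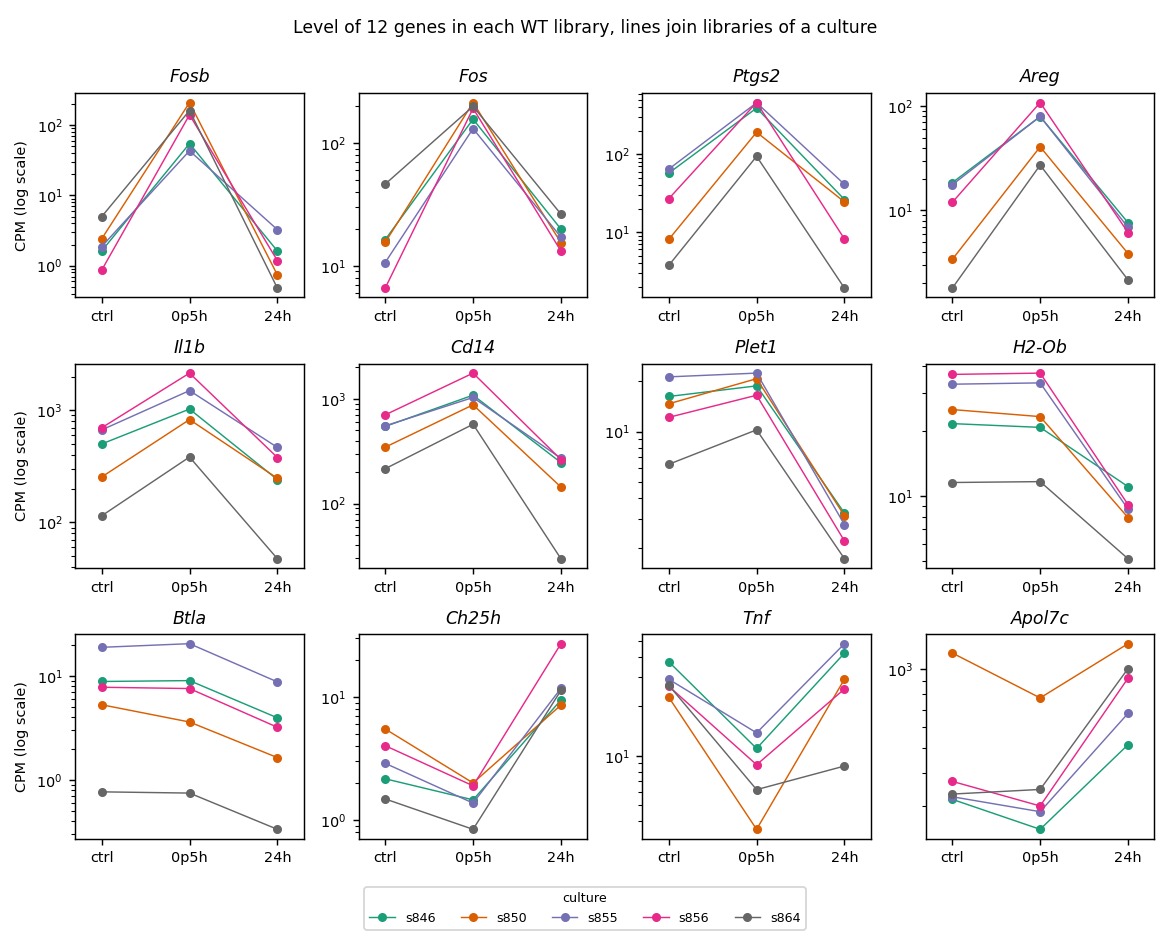
Levels of 12 genes in CPM (log scale) in every WT library, with the 3 libraries of each culture joined by a line and the cultures in 5 colours. *Fosb*, *Fos*, *Ptgs2*, *Areg*, *Il1b* and *Cd14* peak in 0p5h, *Plet1*, *H2-Ob* and *Btla* are lower at 24h, with 0p5h nearer to ctrl than to 24h, and *Ch25h*, *Tnf* and *Apol7c* are higher at 24h than in 0p5h in all 5 cultures.

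Genes that end MAP kinase and G protein signals fell along with them. Of 17 tested members of the feedback list, 7 were called lower and 1 higher, 12 passed as lower, and the median was -0.57. Without the block 4 were called lower. *Dusp1*, a phosphatase that inactivates MAP kinases in the nucleus, had 1353, 952, 1474, 1551 and 619 CPM in 0p5h and 409, 241, 457, 307 and 149.8 CPM at 24h (log2 fold change -1.96, standard error 0.10, adjusted p = 2.22e-05). In ctrl it had 335 ± 158 CPM. *Rgs2*, which shortens G protein signals, went from 325 ± 91.5 to 76.2 ± 10.7 CPM (log2 fold change -2.05, standard error 0.12, adjusted p = 2.59e-05), with 90.2 ± 28.2 CPM in ctrl, and *Dusp4* from 17.2 ± 3.88 to 5.42 ± 1.74 CPM. *Errfi1*, an inhibitor of the epidermal growth factor receptor (EGFR), *Spred2*, *Spry2* and *Dusp14* were also called, with log2 fold changes of -1.47, -1.40, -1.12 and -1.10. Without the block, *Spred2*, *Spry2* and *Dusp14* were not called (adjusted p = 0.229, 0.195 and 0.329). *Dusp14* lost its call when any culture but p974s850 was left out (adjusted p up to 0.072). *Dusp2* was the member called higher (log2 fold change 1.02, adjusted p = 0.0122) and its rise was under 2-fold without p974s850 or p974s864, with the GC trend removed and in limma-voom.

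Among genes of the cAMP and CREB response, 2 of 12 were called lower, *Sik1* (81.4 ± 14.6 to 15.8 ± 1.88 CPM), a kinase that restrains CREB coactivators, and *Gem* (59.3 ± 18.8 to 25.1 ± 4.92 CPM), a small GTPase that lowers calcium channel activity. Of 10 factors of mRNA decay and growth arrest, *Btg2* and *Tob2* were called lower and all 10 log2 fold changes were below 0 (median -0.45). *Btg2* had 886, 1035, 757, 1025 and 755 CPM in 0p5h and 271, 201, 221, 166 and 180.3 CPM at 24h (log2 fold change -2.11, standard error 0.14, adjusted p = 5.24e-05), with no overlap, and 279 ± 71.7 CPM in ctrl. In the JAK-STAT feedback list, *Pim3*, *Cish* and *Socs3* of 7 tested members were called lower (log2 fold changes -1.59, -1.59 and -1.58; median of the list -0.69). NF-kB genes went both ways. Of 16 tested, 1 was called lower, *Nfkbiz* (64.2 ± 10.4 to 24.4 ± 8.78 CPM), a coactivator needed for secondary inflammatory genes, 3 passed as higher (*Traf1*, *Relb* and *Rela*) and 5 as lower, and the median was -0.07. *Tnfaip3*, a deubiquitinase that ends NF-kB signals (chosen after its value was seen), passed just under 2-fold (log2 fold change -0.96, adjusted p = 0.000209). *Nfkbia*, the classical inhibitor, was at 932 ± 145 and 826 ± 125 CPM (adjusted p = 0.191).

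RefSeq promoters on GRCm38.p6 (250 bases before to 50 after a start site) were found for 121 of the 175 genes called lower and 38 of the 53 called higher. The cAMP response element TGACGTCA, to which CREB binds, was in 4.49% of the 156 promoters of genes called lower, 2.17% of the 46 of genes called higher and 1.79% of all 32851 promoters, and in 2.93% of the 12402 promoters of genes tested. Motifs were searched on both strands. The AP-1 site TGANTCA was in 8.97%, 15.2%, 7.81% and 5.31% (lower, higher, all, tested), the CArG box bound by serum response factor in 3.85%, 0%, 1.63% and 1.23%, the NF-kB site in 12.8%, 6.52%, 8.46% and 10.7%, the E-box CACGTG in 8.97%, 10.9%, 7.15% and 9.82%, and the interferon-stimulated response element (GAAA, 2 bases of any kind, GAAA) in 3.85%, 8.7%, 3.44% and 3.18%. These shares rest on few promoters, 7 and 1 with a cAMP response element and 6 and 4 with an interferon-stimulated one, and no test was made on them. A gene with several starts counts more than once. The 6 promoters of genes called lower with a CArG box belong to 3 genes (*Egr2*, *Gpr183* and *Vil1*), 2.48% of genes against 1.5% of the genes tested. *Ifit3* and *Ifit3b*, near-identical copies, both count among the AP-1 and interferon-stimulated matches of genes called higher.

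The promoters below are of genes of the main groups, with cAMP and interferon-stimulated response elements in capitals. The 1 E-box of *Dusp1* and the 1 AP-1 site of *Ifit3* are left in lower case, and the promoters held no other match. *Areg* is the one gene of the 15 largest falls (13 had a promoter) whose promoter holds a cAMP response element, 61 bases before the start. *Dusp1* (a fall), *Ch25h* (the largest rise) and *Ifit3* and *Apol7c* (rises with interferon-stimulated elements) were chosen after their values were seen. The positions are *Areg* chr5:91139349-91139648 (forward strand), *Dusp1* chr17:26508423-26508722 (reverse), *Ch25h* chr19:34475099-34475398 (reverse), *Ifit3* chr19:34583279-34583578 (forward) and *Apol7c* chr15:77533266-77533565 (reverse), each printed 5′ to 3′ along its gene.
Areg: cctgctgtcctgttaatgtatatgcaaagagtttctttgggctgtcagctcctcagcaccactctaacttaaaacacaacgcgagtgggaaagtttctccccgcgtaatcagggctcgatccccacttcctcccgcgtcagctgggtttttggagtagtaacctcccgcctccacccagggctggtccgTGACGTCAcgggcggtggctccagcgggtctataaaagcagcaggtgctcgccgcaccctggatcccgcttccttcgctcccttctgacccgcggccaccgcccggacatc
Dusp1: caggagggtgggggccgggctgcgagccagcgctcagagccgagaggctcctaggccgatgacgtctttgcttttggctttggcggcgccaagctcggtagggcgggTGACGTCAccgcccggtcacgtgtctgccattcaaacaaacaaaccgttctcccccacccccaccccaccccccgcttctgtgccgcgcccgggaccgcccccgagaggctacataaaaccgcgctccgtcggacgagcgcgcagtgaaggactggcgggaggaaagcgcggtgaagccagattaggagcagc
Ch25h: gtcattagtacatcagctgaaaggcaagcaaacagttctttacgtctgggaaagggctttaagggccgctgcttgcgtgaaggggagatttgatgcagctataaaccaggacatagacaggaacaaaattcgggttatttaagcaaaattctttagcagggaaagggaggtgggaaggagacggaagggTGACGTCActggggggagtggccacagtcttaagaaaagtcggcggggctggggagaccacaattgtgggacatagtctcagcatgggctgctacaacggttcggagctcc
Ifit3: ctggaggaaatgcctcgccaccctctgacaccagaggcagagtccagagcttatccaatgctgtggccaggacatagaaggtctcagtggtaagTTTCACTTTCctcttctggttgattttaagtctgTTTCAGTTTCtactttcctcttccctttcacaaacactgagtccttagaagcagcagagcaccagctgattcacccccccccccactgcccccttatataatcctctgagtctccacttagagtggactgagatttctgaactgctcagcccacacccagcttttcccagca
Apol7c: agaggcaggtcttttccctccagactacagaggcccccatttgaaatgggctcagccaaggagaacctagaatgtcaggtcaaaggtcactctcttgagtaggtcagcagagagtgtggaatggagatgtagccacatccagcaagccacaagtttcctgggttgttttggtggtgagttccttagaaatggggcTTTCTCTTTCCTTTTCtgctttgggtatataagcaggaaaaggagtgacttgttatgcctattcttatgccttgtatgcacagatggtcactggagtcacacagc
The same 8 letters are in the promoters of *Areg* and *Dusp1*, which were lower at 24h, and of *Ch25h*, which was higher, with 61, 143 and 61 bases between the first letter and the start. In *Ifit3* and *Apol7c* the element stands on the opposite strand, so that the capitals read as its reverse complement. The 2 matches lie 156 and 122 bases before the start in *Ifit3*, and 55 and 49 bases before it, overlapping, in *Apol7c*.

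**Figure D3:**
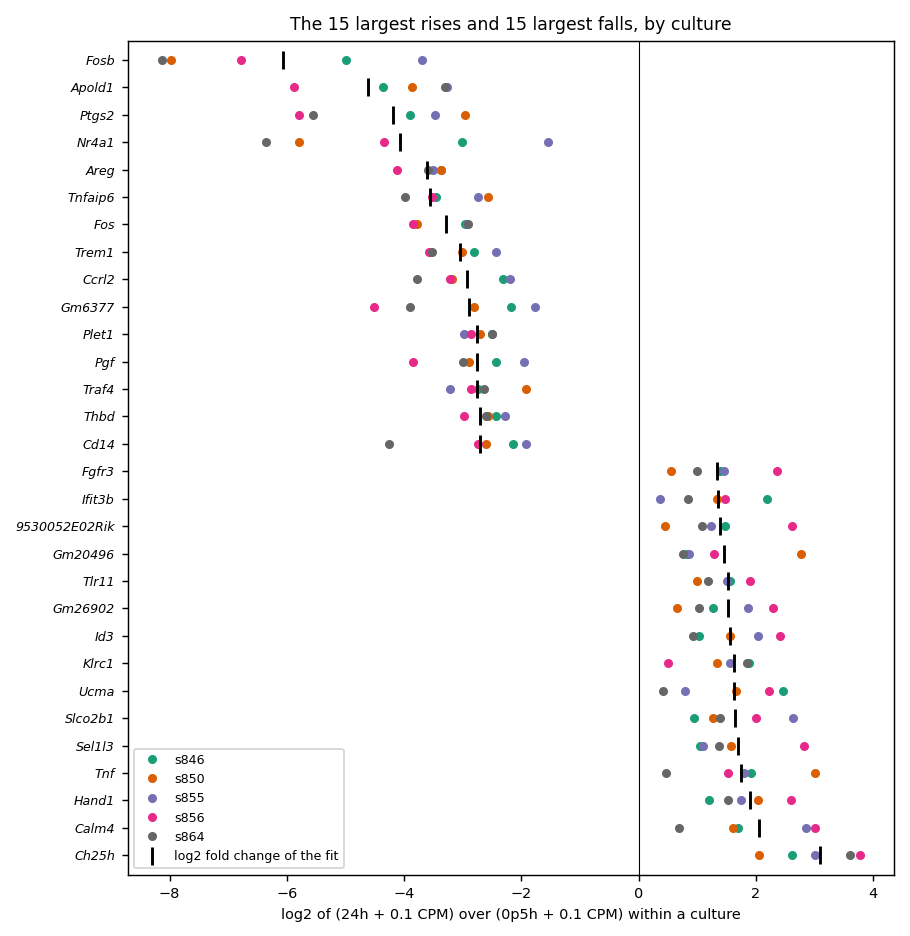
Change from 0p5h to 24h within each of the 5 cultures (coloured points, log2 ratio after adding 0.1 CPM) for the 15 largest rises and 15 largest falls that went the same way in all cultures, with the fitted log2 fold change as a black bar. *Fosb*, *Nr4a1* and *Ptgs2* vary widely between cultures, while the points of *Plet1* and *Thbd* lie close together.

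Cytokines and growth factors had the lowest median of the 35 function lists (-0.998). Of 19 tested members, 9 were called lower and 1 higher, and 2 of the 9 were called without the block. *Areg*, a ligand of EGFR, had 79.5, 40.8, 79.6, 108 and 27.2 CPM in 0p5h and 7.62, 3.85, 6.88, 6.13 and 2.15 CPM at 24h (log2 fold change -3.61, standard error 0.12, adjusted p = 1.62e-06). It had the lowest adjusted p of all genes tested. *Osm*, a cytokine of the IL-6 family that acts on stromal and liver cells, had 216, 202, 282, 214 and 183 CPM in 0p5h and 54.1, 30.2, 55.99, 24.4 and 30.6 CPM at 24h (log2 fold change -2.55, standard error 0.15, adjusted p = 2.36e-05). For *Areg* and *Osm* no library of one set reached into the other, and in ctrl they had 10.6 ± 7.78 and 49.9 ± 25.7 CPM.

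*Il1b*, which encodes the pyrogenic cytokine that inflammasomes release, was abundant. It had 1026, 827, 1499.7, 2147 and 383 CPM in 0p5h and 241, 247, 467, 379 and 47.5 CPM at 24h (log2 fold change -2.20, standard error 0.18, adjusted p = 0.000221). The sets overlapped, because culture p974s864 was low in both, but the level fell within each culture. *Il6* behaved alike, from 99.3, 48.9, 176, 83.5 and 24.6 to 28.3, 20.4, 48.5, 10.7 and 6.74 CPM (log2 fold change -1.93, standard error 0.19, adjusted p = 0.00053), and so did *Il12b*, the p40 subunit shared by IL-12 and IL-23, at 567 ± 334 and 211 ± 117 CPM (log2 fold change -1.40, standard error 0.09, adjusted p = 6.12e-05). In ctrl, *Il1b* had 447 ± 256 CPM, *Il6* 29.4 ± 24.6 CPM and *Il12b* 325 ± 276 CPM. *Pgf* and *Vegfa*, ligands of vascular endothelial growth factor receptors, had log2 fold changes of -2.76 and -1.42, *Lif* -1.34, and *Il1rn*, the secreted antagonist of the IL-1 receptor, -1.19. *Il1b* and *Plet1* each overlap an antisense gene (*Il1bos* and *Plet1os*), whose reads cannot be told apart in the shared part without strand. In the fit without the block, *Il1b*, *Il6*, *Il12b*, *Pgf*, *Vegfa*, *Lif* and *Il1rn* were not called, with adjusted p between 0.0673 and 0.198.

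*Tnf*, the early cytokine of macrophages and dendritic cells, went against its list. It had 11.1, 3.56, 13.8, 8.82 and 6.22 CPM in 0p5h, 42.2, 29.3, 48.2, 25.5 and 8.66 CPM at 24h and 37.4, 22.7, 29.3, 26.5 and 26.9 CPM in ctrl. The level rose from 0p5h to 24h (log2 fold change 1.75, standard error 0.27, adjusted p = 0.00419), least in culture p974s864. Relative to ctrl it differed by -1.79 (standard error 0.28, adjusted p = 0.00256) on that scale in 0p5h and -0.02 (standard error 0.26, adjusted p = 0.975) in 24h, and every 0p5h library lay below every ctrl library. Without the block the rise was not called (adjusted p = 0.0858).

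The prostaglandin gene *Ptgs2* encodes cyclooxygenase-2, the inducible enzyme at the head of prostaglandin synthesis. It had 392, 192, 458, 461 and 94.02 CPM in 0p5h and 26.2, 24.4, 41.05, 8.17 and 1.91 CPM at 24h (log2 fold change -4.19, standard error 0.40, adjusted p = 0.000471), 18.3-fold lower. In ctrl it had 57.2, 8.06, 64.5, 26.8 and 3.74 CPM, and its difference from ctrl was 3.69 (standard error 0.41, adjusted p = 0.000168) in 0p5h and -0.48 (standard error 0.40, adjusted p = 0.454) in 24h. *Ptges*, the prostaglandin E synthase that acts after it, passed with a smaller fall (log2 fold change -0.74, adjusted p = 0.0185), but not without p974s846, p974s855 or p974s864 (adjusted p up to 0.0874). *Hpgds*, which makes prostaglandin D2, was called higher at a low level (1.63 ± 1.91 and 3.75 ± 4.42 CPM) in 4 of 5 cultures, and not without p974s850, p974s855 or p974s864 (adjusted p up to 0.117). Of 16 tested members of the prostaglandin and leukotriene list, 1 was called in each direction and 5 passed as lower.

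In the list of Toll-like receptors and C-type lectins, 4 of 28 tested members were called lower and 2 higher, 10 passed as lower and 3 as higher, and the median was -0.32. *Cd14*, the coreceptor that hands lipopolysaccharide to TLR4, had 1087, 879, 1033, 1766 and 573 CPM in 0p5h and 247, 144, 271, 264 and 29.7 CPM at 24h (log2 fold change -2.71, standard error 0.29, adjusted p = 0.000842). Relative to ctrl it differed by 1.22 (standard error 0.23, adjusted p = 0.0114) on the log2 scale in 0p5h and -1.45 (standard error 0.24, adjusted p = 0.00148) in 24h, so that it ended below ctrl. *Clec7a*, which encodes the beta-glucan receptor Dectin-1, went from 388 ± 84.4 to 139 ± 53.2 CPM (log2 fold change -1.54, standard error 0.12, adjusted p = 0.000146) and *Tlr2* from 143 ± 38.6 to 61.4 ± 15.8 CPM. *Clec4e* (Mincle) was called lower (log2 fold change -1.08) but not without p974s856 or p974s864. *Tlr11* and *Tlr12*, which together sense a protein of apicomplexan parasites, rose from 0.503 ± 0.385 to 1.41 ± 0.733 CPM and from 9.87 ± 5.43 to 19.5 ± 4.63 CPM. The call on *Tlr12* was lost without p974s846, p974s855 or p974s856. *Tlr9* passed as higher (log2 fold change 0.91, adjusted p = 0.00746), from 15.6 CPM in 0p5h to 30.4 CPM at 24h, with 24.7 CPM in ctrl.

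*Trem1*, an amplifier of inflammation on myeloid cells, had 45.03, 50.9, 54.01, 124 and 27.6 CPM in 0p5h and 6.37, 6.23, 9.92, 10.3 and 2.296 CPM at 24h (log2 fold change -3.05, standard error 0.17, adjusted p = 2.22e-05), and no 24h library reached the lowest 0p5h library. In ctrl it had 17.5 ± 7.09 CPM. *Nlrp3*, the sensor of the inflammasome that responds to ATP through P2RX7, fell from 72.8 ± 21.8 to 20.1 ± 3.59 CPM (log2 fold change -1.82, standard error 0.17, adjusted p = 0.000366), with 38.4 ± 10.5 CPM in ctrl, and *Il1rl2*, the receptor of IL-36, from 15.6 ± 2.51 to 7.02 ± 1.02 CPM. With *Il1rn* they were the 3 called members among 17 of the inflammasome and IL-1 receptor list. Of the remaining largest falls, *Tnfaip6* encodes a secreted hyaluronan-binding protein (log2 fold change -3.57), *Thbd* thrombomodulin (-2.71) and *Traf4* an adaptor of receptor signalling (-2.75). *Thbd* was not called without the block (adjusted p = 0.0657). *Gm6377* (-2.89) is a predicted gene that lies within the span of *Sh3bgrl* on the same strand, so that reads of the 2 genes cannot be told apart where their exons coincide.

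Among 17 tested receptors for chemokines and other attractants, *Ccrl2*, which binds chemerin without signalling, fell from 304, 283, 399.9, 489 and 286 CPM to 61.5, 31, 87.5, 52.6 and 20.7 CPM (log2 fold change -2.93, standard error 0.22, adjusted p = 0.000128), with 74.6 ± 39.2 CPM in ctrl. *Gpr183*, the receptor that guides cells along 7-alpha,25-dihydroxycholesterol, was called lower at the edge of the fold threshold (log2 fold change -1.003) and not without p974s850 or p974s864. *Ccr6* was called higher at a low level (0.917 ± 0.44 to 1.98 ± 1.19 CPM), and not without p974s855 or p974s856. *Ccr2* (log2 fold change -0.45), a receptor of inflammatory monocytes, passed as lower, but not without p974s846 or p974s864 (adjusted p up to 0.0574). *Ccr7*, the receptor for the chemokines of lymph nodes, had 5180.4, 4638, 5571, 5999.6 and 3935 CPM in 0p5h and 5060.2, 4814, 5648, 6505 and 3949 CPM at 24h. The interval of 1 standard error around its log2 fold change of 0.03 (0.08) covered 0, and the sets overlapped. Of 15 chemokines, 1 was called lower, *Cxcl2* (51.7 ± 5.23 to 24.3 ± 12.9 CPM, adjusted p = 0.0229), and not without p974s850 or p974s864. Of these genes 4 passed as lower and 0 as higher, and the median was -0.34. The 2 most abundant, *Ccl22* (8556 and 8174 CPM in 0p5h and 24h) and *Ccl5* (6170 and 6928 CPM), did not pass (adjusted p = 0.896 and 0.359).

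A different pattern was seen in genes whose mean level in 0p5h was nearer to that of ctrl than to that at 24h. *Plet1*, a membrane protein of epithelial progenitors and of some dendritic cells, had 18.8, 20.8, 22.4, 16.5 and 10.2 CPM in 0p5h, 3.23, 3.12, 2.76, 2.2 and 1.72 CPM at 24h and 16.2, 14.7, 21.3, 12.2 and 6.36 CPM in ctrl. It fell 6.76-fold from 0p5h to 24h (log2 fold change -2.76, standard error 0.11, adjusted p = 7.68e-06), by a similar factor in each culture, and relative to ctrl it differed by 0.36 (standard error 0.11, adjusted p = 0.118) on the log2 scale in 0p5h and -2.40 (standard error 0.13, adjusted p = 4.86e-07) in 24h. Its level was higher in 0p5h than in ctrl in each culture, though that difference did not pass. *H2-Ob*, a subunit of the H2-O chaperone that holds back peptide loading of MHC class II, had 20.8, 23.3, 33.3, 37 and 11.6 CPM in 0p5h and 11.04, 7.93, 8.69, 9.11 and 5.12 CPM at 24h (log2 fold change -1.53, standard error 0.16, adjusted p = 0.000745). Its values in ctrl, 21.6, 25.1, 32.9, 36.5 and 11.5 CPM, followed those in 0p5h culture by culture. *Nt5e* (CD73), the ectoenzyme that makes adenosine from AMP, had 8.95 ± 4.997 CPM in ctrl, 9.53 ± 5.73 CPM in 0p5h and 3.52 ± 1.59 CPM at 24h (log2 fold change -1.39, standard error 0.13, adjusted p = 0.00047). *Btla*, an inhibitory receptor of lymphocytes and dendritic cells, had 8.89, 5.31, 18.97, 7.82 and 0.769 CPM in ctrl, 9.07, 3.62, 20.6, 7.601 and 0.748 CPM in 0p5h and 3.97, 1.64, 8.81, 3.22 and 0.335 CPM at 24h (log2 fold change -1.20, standard error 0.11, adjusted p = 0.000417). The range between cultures was wider than the change in *Btla* and *Nt5e*, and without the block neither was called (adjusted p = 0.643 and 0.156).

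Other genes of this pattern were chosen for mention after their values were seen. *Clec2l* (10.01, 10.1 and 2.54 CPM in ctrl, 0p5h and 24h), *Lepr*, the leptin receptor (25.6, 19.7 and 7.05 CPM), and *C1s1*, a protease of the classical complement pathway (4.57, 4.34 and 1.32 CPM), were called lower and did not pass between 0p5h and ctrl (adjusted p = 0.961, 0.317 and 0.924). *Ero1a*, an oxidase of the endoplasmic reticulum that hypoxia induces, was at 277, 286 and 122 CPM. These 4 genes were not called without the block.

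Of the MHC class II presentation genes, all 14 tested members had a log2 fold change below 0 (median -0.41), 7 passed as lower and 1, *H2-Ob*, was called. *H2-Aa*, the alpha chain of I-A, went from 8967 ± 1465 to 6782 ± 1209 CPM (log2 fold change -0.41, standard error 0.09, adjusted p = 0.0227), and *H2-Eb1* and *H2-DMa* passed with log2 fold changes of -0.41 and -0.42. *Cd74*, the invariant chain, was at 15586 ± 2554 and 13813 ± 2667 CPM and did not pass (adjusted p = 0.348). *H2-Aa* did not pass without p974s850, p974s855 or p974s864 (adjusted p up to 0.0811), *H2-DMa* without p974s850, p974s855 or p974s864 (adjusted p up to 0.0707) and *H2-Eb1* without p974s846, p974s850, p974s855 or p974s864 (adjusted p up to 0.119). Of 20 MHC class I genes 0 were called, and their median was 0.07; *H2-K1* was at 4859 ± 894 and 4709.9 ± 870.4 CPM. Of 16 costimulatory and inhibitory molecules, 8 passed as lower, among them *Cd80* (-0.54), *Cd86* (-0.38), *Cd274* (-0.45) and *Tnfsf9* (-0.998), and 2 as higher, *Icosl* (0.66) and *Pdcd1* (0.47). *Btla* was the member called. *Cd86* did not pass without p974s855 or p974s864 (adjusted p up to 0.0862), *Cd274* without p974s846 or p974s855 (adjusted p up to 0.111), *Icosl* without p974s846, p974s855 or p974s864 (adjusted p up to 0.0789) and *Pdcd1* without p974s846, p974s855 or p974s856 (adjusted p up to 0.123).

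Rises were fewer, smaller and mostly of scarce transcripts, with 41 of 53 called genes below a mean of 10 CPM in both sets. *Ch25h*, the enzyme that makes 25-hydroxycholesterol, had the largest rise. It had 1.46, 2.005, 1.38, 1.9 and 0.842 CPM in 0p5h and 9.47, 8.61, 11.8, 27.2 and 11.3 CPM at 24h, 8.59-fold higher (log2 fold change 3.10, standard error 0.24, adjusted p = 0.000128). All 24h libraries lay above all 0p5h and all ctrl libraries (2.17, 5.51, 2.895, 4.03 and 1.49 CPM), and 24h differed from ctrl by 2.07 (standard error 0.25, adjusted p = 0.000285) on the log2 scale. Its promoter, printed with that of *Areg*, holds the same cAMP response element. *Gm26902*, also among the largest rises (log2 fold change 1.53), overlaps *Ch25h* on the opposite strand. Reads were counted without regard to strand, so its reads cannot be told apart from those of *Ch25h* in the shared part.

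*Apol7c*, an apolipoprotein L gene of mature dendritic cells, had 244, 775, 285, 300.0 and 347 CPM in 0p5h and 514, 1249, 677, 922 and 1004 CPM at 24h (log2 fold change 1.23, standard error 0.13, adjusted p = 0.000782). Culture p974s850 was the highest in both sets, and the level rose within each culture. *Calm4*, a calmodulin-like gene, went from 2.19, 1.504, 1.34, 1.27 and 2.06 to 7.34, 4.82, 10.3, 10.9 and 3.396 CPM (log2 fold change 2.06, standard error 0.31, adjusted p = 0.00414). *Id3*, an inhibitor of basic helix-loop-helix factors, rose from 5.18 ± 3.82 to 13.9 ± 5.62 CPM and *Hand1*, a basic helix-loop-helix factor of heart and placenta, from 0.737 ± 0.522 to 2.68 ± 1.19 CPM. Further large rises were of genes with a mean below 6 CPM in both sets: *Slco2b1* (log2 fold change 1.65), *Sel1l3* (1.69), *Ucma* (1.63), *Klrc1* (1.63), *Gm20496* (1.46), *9530052E02Rik* (1.40) and *Fgfr3* (1.34). Of these, *Ucma* was not called without p974s846, p974s850, p974s855 or p974s856 (adjusted p up to 0.124), *Gm20496* without p974s846 or p974s856 (adjusted p up to 0.0782), and *9530052E02Rik* without p974s846, p974s855 or p974s864 (adjusted p up to 0.0675). Without the block, *Apol7c*, *Id3*, *Hand1*, *Slco2b1*, *Klrc1*, *Fgfr3*, *Tlr11* and *Tlr12* were not called either (adjusted p between 0.0673 and 0.365). Over all genes tested, 6 were called higher in that fit, so not all of the other rises named here and in the paragraph before were called there. *Gm20496* lies opposite *Psmb8* and *Tap2*, and *9530052E02Rik* opposite *Irs2*, so that without strand their reads cannot be told apart in the shared parts.

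Interferon-stimulated genes passed in 1 direction. Of 48 tested members of a list of 49, 45 had a log2 fold change above 0, 13 passed as higher and 0 as lower, and the median was 0.33. Only *Ifit3* and *Ifit3b* were called, and neither was called without p974s846 (log2 fold change of *Ifit3b* not passing, adjusted p = 0.0808, and *Ifit3* under 2-fold) or without the block. *Ifit3* had 11.3, 3.17, 12.3, 7.97 and 1.59 CPM in 0p5h and 43.4, 7.59, 16.1, 17.4 and 2.97 CPM at 24h (log2 fold change 1.13, standard error 0.21, adjusted p = 0.00891), with culture p974s846 at 24h well above the others. *Ifit3* and *Ifit3b* are near-identical copies, and reads that align to both were not counted under the options in the file header, so their separate values are uncertain. *Ifit1* (log2 fold change 0.97), *Cmpk2* (0.90) and *Mx1* (0.59) passed below 2-fold, but *Ifit1* not without p974s846 (adjusted p up to 0.088), *Cmpk2* not without p974s846 or p974s850 (adjusted p up to 0.0815) and *Mx1* not without p974s846 or p974s855 (adjusted p up to 0.0701).

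**Figure D4:**
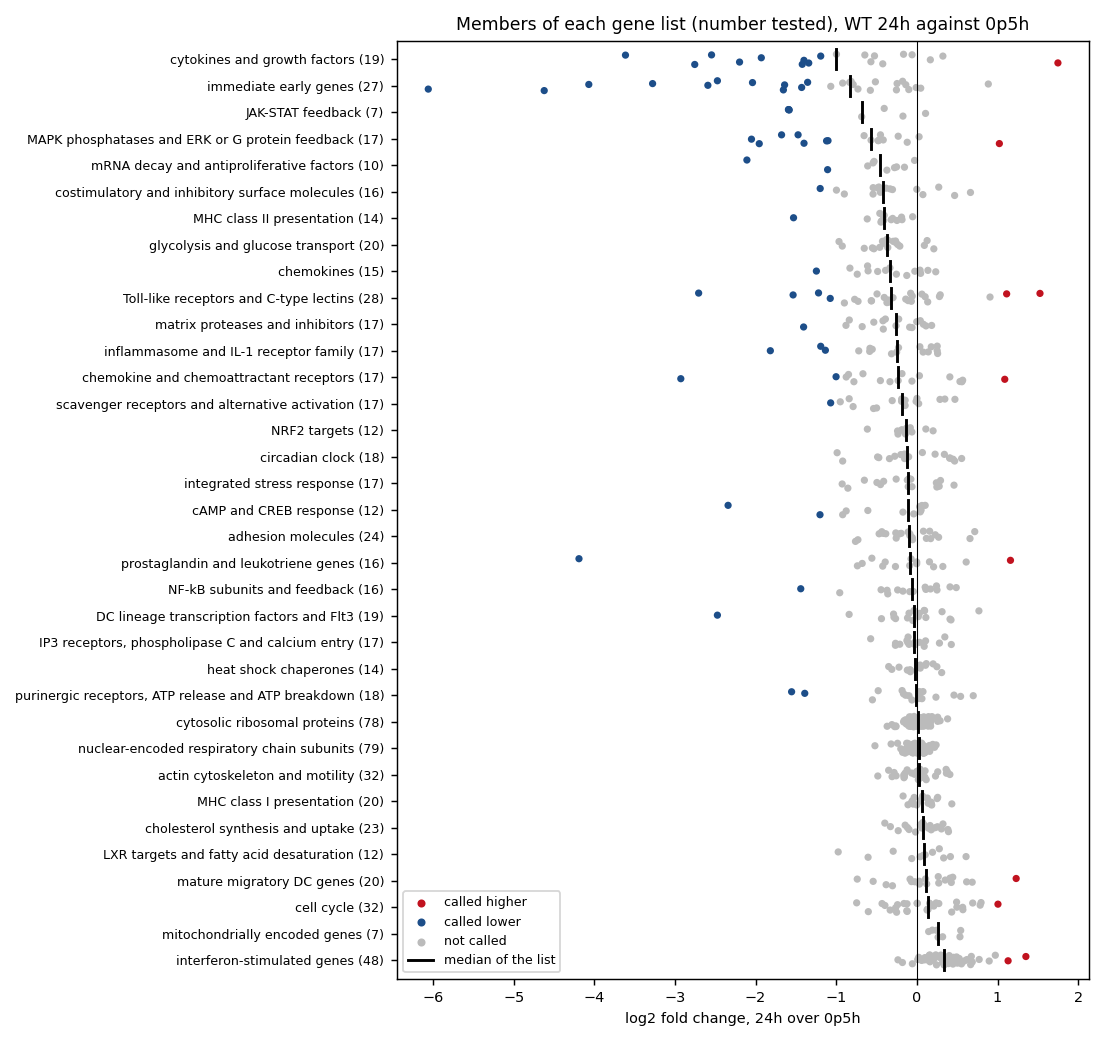
Log2 fold change from 0p5h to 24h of every tested member of 35 gene lists (number tested in brackets), with called genes in red (higher) or blue (lower), other genes in grey, and the median of each list as a black bar. Lists are ordered by median, from cytokines and growth factors at -0.998 to interferon-stimulated genes at 0.33.

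In the list of purinergic receptors, ATP release and ATP breakdown, 2 of 18 tested members were called lower, *Adora2b*, the low-affinity adenosine receptor (8.22, 14.4, 9.92, 9.396 and 7.99 CPM in 0p5h and 2.59, 3.97, 4.24, 2.75 and 3.205 CPM at 24h; log2 fold change -1.55, standard error 0.13, adjusted p = 0.000224), and *Nt5e*, and the median was -0.02. *P2rx7*, the channel that ATP opens at high concentration, was at 11.7 ± 5.798 and 10.7 ± 5.11 CPM (adjusted p = 0.638) and *P2ry2*, a G protein-coupled ATP receptor, at 2.74 ± 0.637 and 2.47 ± 0.56 CPM (adjusted p = 0.571). Of 17 genes of IP3 receptors, phospholipase C and calcium entry, 0 were called, 2 passed as higher and 1 as lower. *Itpr3*, an IP3 receptor, was at 18.1 ± 0.421 and 18.96 ± 4.65 CPM (log2 fold change 0.03, standard error 0.12), and *Atp2a3*, a pump that refills calcium stores, passed as lower (-0.57).

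*Cacnb3*, the gene that the study deleted in its other genotype and a subunit of voltage-gated calcium channels, had 1243, 1405, 1039, 1061 and 1466 CPM in 0p5h and 1316, 1665, 1343, 1937 and 2183 CPM at 24h. It was higher at 24h in all 5 cultures (log2 fold change 0.43, standard error 0.12, adjusted p = 0.0457) but did not pass without p974s846, p974s850, p974s855 or p974s864 (adjusted p up to 0.135). It belongs to the list of mature migratory dendritic cell genes, of which 1 of 20 was called higher (*Apol7c*), 6 passed as higher, 3 as lower, and the median was 0.11. *Fscn1*, an actin-bundling protein of these cells, passed as higher, from 3971 ± 552 to 6109.5 ± 975 CPM (log2 fold change 0.62, standard error 0.09, adjusted p = 0.00411), with no overlap between the sets.

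Adhesion genes gave 0 called members among 24, with 7 passing as lower, 2 as higher and a median of -0.10. Over all genes tested, 1.78% were called, 6.78% passed as lower and 4.52% as higher, so 0 called among so few does not set these genes apart. Of 32 cytoskeleton genes 0 were called, 2 passed in each direction and the median was 0.03. *Itgam* (CD11b) had 175, 239.8, 117, 293 and 271 CPM in 0p5h and 125, 177, 101, 229.8 and 168 CPM at 24h, a fall in each culture (log2 fold change -0.44, standard error 0.08, adjusted p = 0.00976) that was smaller than the range between cultures. *Itgax* (CD11c) passed as lower (-0.73) in all 5 cultures and under each left-out culture. *Cd44*, the hyaluronan receptor, was at 372 ± 103 and 347 ± 82.2 CPM with a log2 fold change of -0.09 (standard error 0.10). *Actb* was higher in all 5 cultures (10904 ± 504 and 14139 ± 1756 CPM) but did not pass (adjusted p = 0.0608).

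In metabolism, 17 of 20 genes of glycolysis and glucose transport had a log2 fold change below 0 (median -0.37). 6 of them passed as lower and 0 were called, *Hk2* (-0.97) and *Slc2a1* (-0.93) being the furthest from 0, *Hk2* not passing without p974s864 (adjusted p up to 0.0786). Ribosomal protein genes (78 tested, median 0.02, 0 passed) and nuclear genes of the respiratory chain (79 tested, median 0.02, 1 passed) lay close to the median of all genes. The 7 tested mitochondrial genes of 13 all had log2 fold changes above 0 (median 0.26), and *mt-Cytb* (0.53) and *mt-Nd4* (0.54) passed, but *mt-Cytb* not without p974s846, p974s850, p974s855 or p974s864 (adjusted p up to 0.125) and *mt-Nd4* not without p974s846, p974s855 or p974s864 (adjusted p up to 0.0802). The mitochondrial share of the libraries given above is made of the same counts, so it is not a separate observation. 5 of the 13 had 0 counts in all 10 libraries, so that share holds no reads of them. In the cell cycle list 1 of 32 was called, *Tk1* (log2 fold change 1.005), and not without p974s855, p974s856 or p974s864. Among 19 lineage factors of dendritic cells, 1 was called, *Klf4* (lower), 4 passed as higher and 2 as lower, and the median was -0.04. *Runx3* passed as lower (log2 fold change -0.84, adjusted p = 0.000923), and *Flt3*, the receptor of their progenitors, passed as higher (66.2 to 112 CPM; log2 fold change 0.77, standard error 0.13, adjusted p = 0.00692). Of lists not named so far, the chaperone, NRF2, stress response, LXR, cholesterol and clock lists held 0 called genes, and those of matrix proteases and scavenger receptors 1 each, *Plaur* (-1.41) and *Mgl2* (-1.07).

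Whether the change in WT differed from that in *Cacnb3*-/- cultures was tested as an interaction over the 20 libraries of both genotypes, which also differ in substrain, so that the deletion and the substrain cannot be told apart. *Cacnb3* itself gave 751 to 1331 CPM in the 0p5h and 573 to 1295 CPM in the 24h libraries labelled *Cacnb3*-/-, so reads on the gene were counted there as well and its level does not check the label. Of 13424 genes, 1 (0.00745%) was called, *Btla*. It fell in WT as given above, and in libraries labelled *Cacnb3*-/- it was at 1.07 ± 0.350 CPM in 0p5h and 2.298 ± 1.39 CPM at 24h. The interaction was 2.29 on the log2 scale (standard error 0.26, adjusted p = 0.0027, *Cacnb3*-/- minus WT). At an unadjusted p under 0.05 there were 3817 of the 13424 genes, where about 1 in 20 is expected with no difference. What this excess reflects was not tested. Without the block, edgeR called 0 genes (smallest adjusted p = 0.68), and 789 of 13424 had an unadjusted p under 0.05. DESeq2 with the block called 35 of 13424. edgeR called 252 of 13496 genes without *Cacnb3*-/- culture p974s865 and 10 of 13563 without WT culture p974s850. For *Fosb*, *Fos*, *Ptgs2*, *Ch25h* and *Tnf* the interaction did not pass (adjusted p = 0.137, 0.248, 0.108, 0.557 and 0.755), with differences of -2.14, 0.44, 2.46, -0.33 and 0.19.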

How the data were processed

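Messenger RNA of 30 BMDC cultures' libraries (WT and *Cacnb3*-/-, 3 sets of 5 cultures each) was sequenced by the study. The authors aligned reads to the mouse genome (mm10 per the labels) with STAR 2.4, and per the file header counted the alignments of read 1 per Ensembl 79 (GRCm38) gene with featureCounts 1.5.1, without strand and without multi-mapping reads. The deposited values are raw counts. The study's text names another build and read layout, which the header does not bear out. Counts without strand cannot separate antisense genes, and near-identical copies lose reads.

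Of 43629 gene IDs, 38984 had a symbol. Libraries were grouped by GEO's labels. Counts were tested with edgeR 4.0.16 (R 4.3.3; TMM, filterByExpr, quasi-likelihood, Benjamini-Hochberg over all genes tested) with culture as a block, called at an adjusted p under 0.05 and 2-fold. The pairing came from the culture numbers in the labels and was compared with deviations from set means over 12830 genes. The 5 same-number pairs correlated at 0.45 to 0.837, above a threshold of 0.1, with a median of -0.262 for other pairs. Some other pairs also exceeded the threshold, up to 0.455 for p974s850 in 0p5h with p974s864 at 24h. The correlations therefore do not by themselves establish each pair, and the pairing rests on the labels. The 0p5h and 24h libraries of a culture shared a sequencing lane per the file header, so same-number pairs are also same-lane pairs. The ctrl library of p974s846 was in lane 1, and its 0p5h and 24h libraries were in lane 2. In that culture, differences from ctrl are therefore also differences between lanes. CPM values were scaled by TMM over the 15 WT libraries. Alternatives were the fit without the block, DESeq2 1.42.0, DESeq2 size factors, limma-voom (limma 3.58.1), no filter, no fold minimum, GC trend removal, wider fits and leaving out each culture. Scripts were tested on simulated data. Totals over all 30 libraries ranged from 8237393 to 32164225, and no 2 libraries held identical counts.

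Genes were named by rule: the 15 largest falls and 15 largest rises called in the same direction in all 5 cultures, the called members of 45 gene lists (10 of cell type markers) or their 2 most abundant members, interaction calls, and *Cacnb3*, *Fos*, *Fosb*, *Nr4a1*, *Ccr7*, *Itgam*, *Cd44*, *P2rx7*, *P2ry2* and *Itpr3*. Members and lists were chosen with earlier results of these data known.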

Additional observations from a re-analysis of the deposited data

Results flagged for a closer look

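The change of *Btla* from 0p5h to 24h differed between genotypes by 2.29 on the log2 scale (*Cacnb3*-/- minus WT), the 1 gene past the threshold of the interaction test. Its level in WT culture p974s864 was 0.748 CPM in 0p5h against 3.62 to 20.6 CPM in the other 4 cultures and 0.67 to 1.36 CPM in the libraries labelled *Cacnb3*-/-.

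In 12 of 260 sets of 5 libraries tested by Dixon's criterion, 1 library stood apart from the other 4, where chance flags about 1 in 20. The gene values were *Gm6377* in 0p5h of p974s856 (highest, 63.3 CPM against 39.3 to 42.04 CPM), *Cd14* in 24h of p974s864 (lowest, 29.7 CPM against 144 to 271 CPM), *Ch25h* in 24h of p974s856 (highest, 27.2 CPM against 8.61 to 11.8 CPM), *Hand1* in 24h of p974s855 (lowest, 0.782 CPM against 2.49 to 3.74 CPM), *Gm20496* in 0p5h of p974s850 (lowest, 0.0557 CPM against 0.243 to 0.422 CPM), *Fosl2* in 0p5h of p974s856 (highest, 375 CPM against 262 to 275 CPM), *Tob2* in 0p5h of p974s855 (lowest, 91.01 CPM against 115 to 125 CPM), *Il1b* in 24h of p974s864 (lowest, 47.5 CPM against 241 to 467 CPM), *Il12b* in 24h of p974s855 (highest, 417 CPM against 138 to 189 CPM), *Relb* in 24h of p974s856 (highest, 1435 CPM against 768 to 881 CPM) and *Pdcd1* in 24h of p974s856 (highest, 25.5 CPM against 13.7 to 14.9 CPM). The library of culture p974s855 named 0p5h had the highest total, 32164200 counts, against 17037600 to 20666600 in the others of its set.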

How the results depend on the processing

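Every one of the 228 called genes that an alternative could test kept its direction there. For 24h against 0p5h, 228 genes (53 higher, 175 lower) became 82 (6 and 76) with no replicate block, and 1450 (580 and 870) with no fold minimum. The genes called higher became 92 with no filter on low counts and 82 with all 30 libraries in 1 fit. Leaving out each culture gave 200 to 259 genes (43 to 62 higher, 152 to 197 lower). Of the 228 genes, 213 were called by DESeq2, 217 by limma-voom, 216 with the GC trend removed and 178 to 208 with a culture left out. For 24h against ctrl, 171 genes became 4 without the block and 137 to 212 with a culture left out, and for 0p5h against ctrl 70 became 26 and 51 to 65. The interaction gave 1 gene, 35 in DESeq2, 3 with the GC trend removed, 0 with no replicate block, 1 to 10 without single WT cultures and 1 to 252 without single *Cacnb3*-/- cultures. The log2 fold changes of 3 genes without a call changed sign: *Ccr7* was at -0.0146 and *Itpr3* at -0.0171 with the GC trend removed, and over the left-out cultures *Cd44* ranged from -0.173 to 0.0103 and *Itpr3* from -0.0965 to 0.117. The cause of these changes was not tested. The replicate block pairs libraries by culture, and 5 cultures limit every test. At the depth given above, 41 of the 53 genes called higher and 75 of the 175 called lower had means below 10 CPM in both sets.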
